A study of Sus scrofa with 32 samples.

Results

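CTSW-high γδ T cells of the pig ileum were 1109 barcodes chosen by their own reads. A barcode had to hold at least 1250 UMIs and 550 genes, with at most 12.5% of its UMIs from the 13 mitochondrial genes. It then needed at least 1 UMI of CD3E, TRDC and CD2, no UMI of CD8B, CD79B, TOP2A or EPCAM, at least 2 UMIs of CTSW, and more UMIs of CTSW than of GZMB. These cells were 1109 of 35386 ileal barcodes that passed the quality thresholds, of 12200 that held CD3E and none of the excluded B cell, cycling and epithelial genes, and of 2950 CD2-positive γδ T cells. The values of these genes chose the cells, so they are described here without a test. Because the reads of CTSW and GZMB divided the CD2-positive γδ T cells, genes that accompany CTSW or GZMB carry that choice as well.

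The study sequenced single cells of 2 mixed-breed pigs of 7 weeks, labelled female (pig 1) and male (pig 2). From each pig came ileum made up of Peyer's patches (PP), ileum trimmed of them (non-PP) and a full cross-section holding both (whole ileum), and blood of the same pigs gave peripheral blood mononuclear cells (PBMC). No pig was treated, and each of the 8 libraries was sequenced in 4 runs that were counted as 1 sample. The 6 ileal libraries held 21134542 to 40111934 UMIs (unique molecular identifiers, which count molecules rather than reads), and the PBMC libraries held 36465389 and 38240907.

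γδ T cells carry a T cell receptor made of γ and δ chains in place of the α and β chains of most T cells. In the gut many of them live within or just below the epithelium, where they respond to stressed or infected epithelial cells and make cytotoxic granules, chemokines and cytokines. Pigs have a large γδ T cell compartment, which is commonly divided by the surface protein CD2. CTSW encodes cathepsin W, a papain-like cysteine protease found mainly in cytotoxic lymphocytes. CCR9 is the chemokine receptor that guides lymphocytes to the small intestine, where epithelial cells make its ligand CCL25.

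The library labelled whole ileum pig 1 did not behave as its label says. Y-linked genes summed to 195 counts per 1e6 UMIs (CPM) in it, whereas they summed to 0.176 in the PP library, 0.157 in the non-PP library and 0 in the PBMC library labelled with the same pig. In the 4 libraries labelled pig 2 they summed to 105 CPM in PBMC, 172 in non-PP, 203 in PP and 214 in whole ileum. Y-linked reads were therefore present in this library at the level of the libraries labelled male. It is called the library labelled whole ileum pig 1 throughout, and sums per pig use it as labelled. Where its removal ended the call of a gene described here, the adjusted p without it is given. Libraries shared 21 to 80 quality barcodes in each of 28 pairs, at most 1.23% of the smaller library, and no barcode of a CTSW-high γδ T cell was shared.

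TRDC, the constant segment of the δ chain, was required by the choice, so that its level is a description and no test of identity. Summed over the cells of a library, TRDC was 4317 and 4229 CPM in PP, 4222 and 4294 in non-PP and 4323 and 4594 in whole ileum (pig 1 and pig 2). B cell barcodes of the same libraries, which should lack it, held 9.63 to 24.6 CPM of TRDC, although non-PP held only 19 and 49 B cell barcodes. The median cell held 12 to 15 UMIs of TRDC, and 94.5% to 98.9% of cells held at least 2. CD4 was at 0 to 5.11 CPM, and CD8A, which many intestinal γδ T cells carry as a homodimer, was in 39.6% to 45.5% of cells at 186 to 241 CPM. SOX13, a transcription factor of some γδ lineages, was at 0 in every ileal library, as it was in every other T cell class measured. Genes of the γ, α and β constant segments were not analysed here, so the assignment to the γδ lineage rested on TRDC, CD3E and the absence of CD8B.

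CTSW reached 2115, 1626, 2422, 1949, 1760 and 2031 CPM in PP pig 1, PP pig 2, non-PP pig 1, non-PP pig 2, whole ileum pig 1 and whole ileum pig 2. The median cell held 4 to 7 UMIs of CTSW. At the edge of the choice, cells with 1 UMI of CTSW that otherwise passed numbered 7, 18, 2, 2, 15 and 5 in the same order, and cells with 2 UMIs numbered 18, 18, 13, 16, 22 and 11. In PP pig 1, PP pig 2 and whole ileum pig 1, which held 7 or more cells just outside, CCR9 was detected in 28.6%, 33.3% and 33.3% of those cells and in 38.9%, 38.9% and 36.4% of the cells just inside. Cells with 1 or 2 UMIs were thus most frequent, beside their library's members, in PP pig 2 and whole ileum pig 1. When every quality barcode was thinned to 1250 UMIs and the choice was made anew, 82, 48, 120, 87, 72 and 65 cells met it in the same order. Barcodes outside the choice at full depth could enter it there, so these counts are not the members that remained.

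CCR9, which was not used in the choice, was present in the cells of every ileal library. It was detected in 53.4% and 53.2% of cells in PP, 59.7% and 62.7% in non-PP and 59.3% and 52.9% in whole ileum, at 270, 274, 332, 334, 305 and 323 CPM. B cell barcodes, whose median depth of 2527 to 4174 UMIs was near the 2705 to 3659 UMIs of the CTSW-high cells, held CCR9 in 0% to 1.9% of cells. When each cell was thinned to 1250 UMIs, CCR9 remained in 26.9% to 32.8% of CTSW-high γδ T cells. TRDC and CTSW were required by the choice and CCR9 was not, but CCR9 varied with the CTSW reads that chose the cells. In the order given for CTSW, cells with 2 UMIs of CTSW held CCR9 in 38.9%, 38.9%, 53.8%, 50%, 36.4% and 63.6%. Cells with 4 or more held it in 53.4%, 53.8%, 60.7%, 63.7%, 63.9% and 53.8%, so that whole ileum pig 2 alone went the other way. How far CCR9 follows CTSW was not tested.

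CTSW-high cells were compared between dissections as a share of T cells. They made up 10.9% and 8.29% of CD3E-positive barcodes in PP, 9.95% and 8.24% in non-PP and 8.36% and 8.71% in whole ileum (pig 1 and pig 2). In PBMC the same thresholds found 105 and 79 barcodes, which were 3.77% and 3.03% of CD3E-positive barcodes. All 6 ileal libraries thus lay above both PBMC libraries, and the PP and non-PP libraries overlapped. The share was 9.10% ± 1.20 in non-PP and 9.62% ± 1.88 in PP (SD, n = 2), a difference of -0.524 percentage points (exact permutation test, two-sided, p = 0.667). With 2 libraries against 2 this exact permutation test cannot go below p = 0.333.

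The denominator decided the direction of this comparison. CTSW-high cells were 59.9% and 43.2% of CD2-positive γδ T cells in PP, 35.7% and 27.3% in non-PP, 35.1% and 44.9% in whole ileum, and 49.8% and 42.9% in PBMC. Here every non-PP library lay below every PP library, by 24.2 percentage points in pig 1 and 15.8 in pig 2 (exact permutation test, p = 0.333, 0.5 after adjustment over the 3 denominators). Of all quality barcodes they were 2.43% and 2.02% in PP, 7.42% and 5.32% in non-PP and 3.14% and 1.54% in whole ileum, so that non-PP libraries lay above PP libraries in both pigs (exact permutation test, p = 0.333, 0.5 adjusted). Neither difference could pass the threshold in this design.

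**Figure D1:**
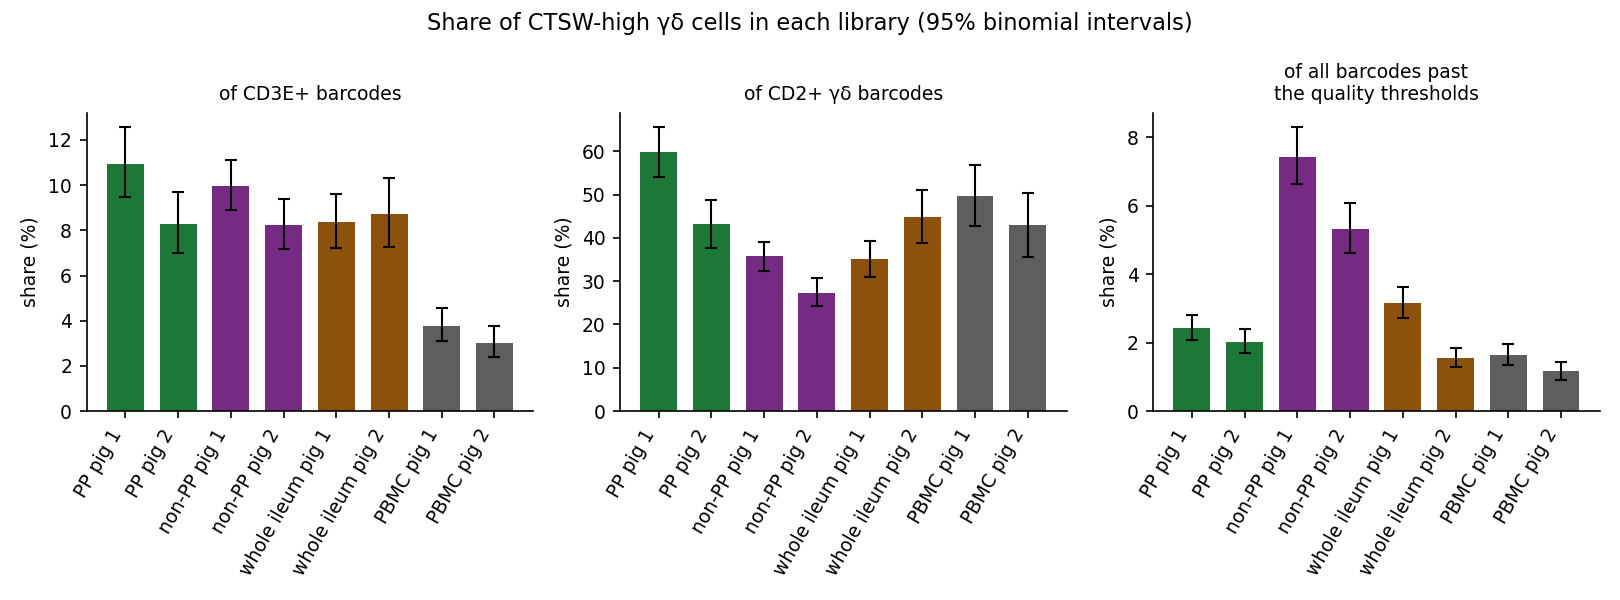
Each bar is the share of CTSW-high γδ T cells in 1 library, in percent of CD3E-positive barcodes (left), of CD2-positive γδ T cells (middle) and of all quality barcodes (right), with 95% binomial intervals that cover counting error only. PP and non-PP overlap on the left, whereas non-PP lies lower in the middle and higher on the right.

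A count model over the gated T cell classes gave the same picture relative to T cells. With the number of CD3E-positive barcodes as offset, the number of CTSW-high γδ T cells differed by -0.08 on the log2 scale between non-PP and PP (SE 0.41, edgeR quasi-likelihood test, adjusted p = 0.846). In the same model the cytotoxic γδ T cells were higher in non-PP by 1.56 (SE 0.33, same test, adjusted p = 0.000669). These cells had at least 2 UMIs of GZMB and more UMIs of GZMB than of CTSW. CD4 T cells were lower by 2.13 in non-PP (adjusted p = 0.00263). Relative to CD2-positive γδ T cells the CTSW-high cells were at -0.71 (adjusted p = 0.167), and relative to all quality barcodes at 1.52 (adjusted p = 0.0787). The CTSW-high γδ T cells thus did not pass the test under any of these offsets.

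Expression was next compared with cytotoxic γδ T cells, the nearest class of the same tissue, to ask what the division by CTSW and GZMB separates. UMIs were summed over the cells of each class in each pig and tested over 7410 genes in 1 model, in which a gene was called at an adjusted p under 0.05 and a fold over 2. Of these genes 11 were higher (0.148% of all tested) and 31 lower (0.418%) in CTSW-high cells, together 0.567%, and the median log2 difference over all genes was -0.02. With the pig as a block 36 were higher (0.486%) and 85 lower (1.15%), together 1.63%. CTSW-high cells held more CCR9, XCL1, MFAP5, CA2, NAPSA, CD74 and SLA-DQB1, and less GZMA, GNLY, IFNG, GZMK, FASLG, PRDM1 and ENTPD1.

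Among receptors and ligands, CCR9 was 76.9 to 113 CPM in cytotoxic γδ T cells, below each of the 6 values in CTSW-high cells given above. Pooled over the libraries, CCR9 was 310 CPM against 95.5, and the log2 difference was 1.78 (SE 0.31, edgeR quasi-likelihood test, adjusted p = 0.0177). XCL1 encodes a chemokine that attracts cross-presenting dendritic cells. It was 1497 and 1249 CPM in PP, 1243 and 1521 in non-PP and 1486 and 1682 in whole ileum, whereas cytotoxic γδ T cells held 271 to 826 CPM. The groups did not overlap and differed by 1.23 on the log2 scale (SE 0.21, adjusted p = 0.0134). XCL1 was detected in 79.8% to 90.5% of CTSW-high cells and in at most 8.2% of B cells of the same library. CCL5, a chemokine of memory and effector T cells, was at 15480 to 25390 CPM in CTSW-high cells and did not pass the test (log2 difference -0.26, adjusted p = 0.961). The integrin subunit ITGAE, which holds lymphocytes to epithelial E-cadherin, was 240 to 451 CPM and did not pass either (-0.27, adjusted p = 0.885). CCR9 and XCL1, without the library labelled whole ileum pig 1, were at 1.75 and 1.25 and no longer passed (adjusted p = 0.199 and 0.15).

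MFAP5 encodes a glycoprotein of extracellular microfibrils. It was 134, 136, 156, 212, 209 and 127 CPM in CTSW-high cells in the order given for CTSW, and 0 to 26.1 CPM in cytotoxic γδ T cells (log2 difference 3.38, SE 0.36, adjusted p = 0.0003). MFAP5 was detected in 19.3% to 32.8% of CTSW-high cells and was at 0 to 0.811 CPM in B cells, at a median of 10.4 CPM in barcodes under 100 UMIs, which hold the free RNA of the suspension, and 0.976 and 0 CPM in blood CD2-positive γδ T cells. Against CTSW-high CD8 T cells, at 21.8 to 94.9 CPM, MFAP5 did not overlap and passed with the block but not without it (1.46, SE 0.35, adjusted p = 0.0915, 0.012 with the pig as a block and 0.15 with the block but without the library labelled whole ileum pig 1). MFAP5 without the library labelled whole ileum pig 1 was at 3.36 (adjusted p = 0.066).

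CA2 and NAPSA were further genes higher in CTSW-high cells. CA2, the cytosolic carbonic anhydrase II, was 83.1, 104, 89.8, 107, 125 and 74.9 CPM in the 6 libraries. It was 13.6 CPM in cytotoxic γδ T cells pooled over the libraries (log2 difference 2.93, SE 0.27, edgeR, adjusted p = 6.33e-05). It was at most 0.277 CPM in B cells. NAPSA, an aspartic protease, was 74.1 to 116 CPM (log2 difference 2.47, SE 0.23, adjusted p = 6.33e-05), with 24.7 to 76.0 CPM in B cells. Of 8 listed B cell markers 8, 7, 3, 1, 7 and 6 had a UMI in the CTSW-high cells of the 6 libraries, and they summed to 59.3, 52.2, 11.5, 10.2, 27.9 and 28.8 CPM. CD79A, which encodes a chain of the B cell receptor complex, was the most abundant in 5 libraries at 8.35 to 18.1 CPM and MS4A1 in whole ileum pig 1 at 8.21 CPM. In non-PP pig 2 every B cell marker but CD79A was at 0. Against CTSW-high CD8 T cells CA2 was higher by 1.44 (adjusted p = 0.0235, 0.383 without the library labelled whole ileum pig 1), whereas NAPSA was at 0.08 (adjusted p = 0.988). The calls against cytotoxic γδ T cells held without the library labelled whole ileum pig 1, with adjusted p = 0.0241 for CA2 and 0.00835 for NAPSA.

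MHC class II genes encode the molecules that present peptides to CD4 T cells, and pig T cells can carry them once activated. Of 5 genes of the list that were tested, 2 were higher in CTSW-high than in cytotoxic γδ T cells and none was lower, with a median log2 difference of 1.21, and 4 were higher with the pig as a block. The invariant chain CD74 was 2981, 3027, 2726, 2794, 2996 and 3229 CPM against 884 to 1657 CPM (log2 difference 1.27, SE 0.19, adjusted p = 0.00467). SLA-DQB1 was 436, 515, 420, 459, 497 and 596 CPM against 83.7 to 271 CPM (1.57, SE 0.31, adjusted p = 0.0288). SLA-DRA was 997, 1079, 1018, 1031, 1115 and 1403 CPM against 325 to 664 CPM, and it did not pass in the test of sums per pig (1.21, SE 0.33, adjusted p = 0.102), but did with the pig as a block (0.00214), by DESeq2 (0.036) and with sums per library (0.00834). The groups did not overlap for these genes. B cells held 1520 to 2264 CPM of SLA-DRA, and barcodes under 100 UMIs held 343 to 1651 CPM, so that free RNA of these genes was abundant. With ambient counts subtracted CD74 was at 1.29 (adjusted p = 0.0232) and SLA-DQB1 at 1.62 (0.0665). Without the library labelled whole ileum pig 1 they were at 1.37 and 1.67 (adjusted p = 0.183 and 0.311), and SLA-DRA kept its call with the block (1.37, adjusted p = 0.0279).

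**Figure D2:**
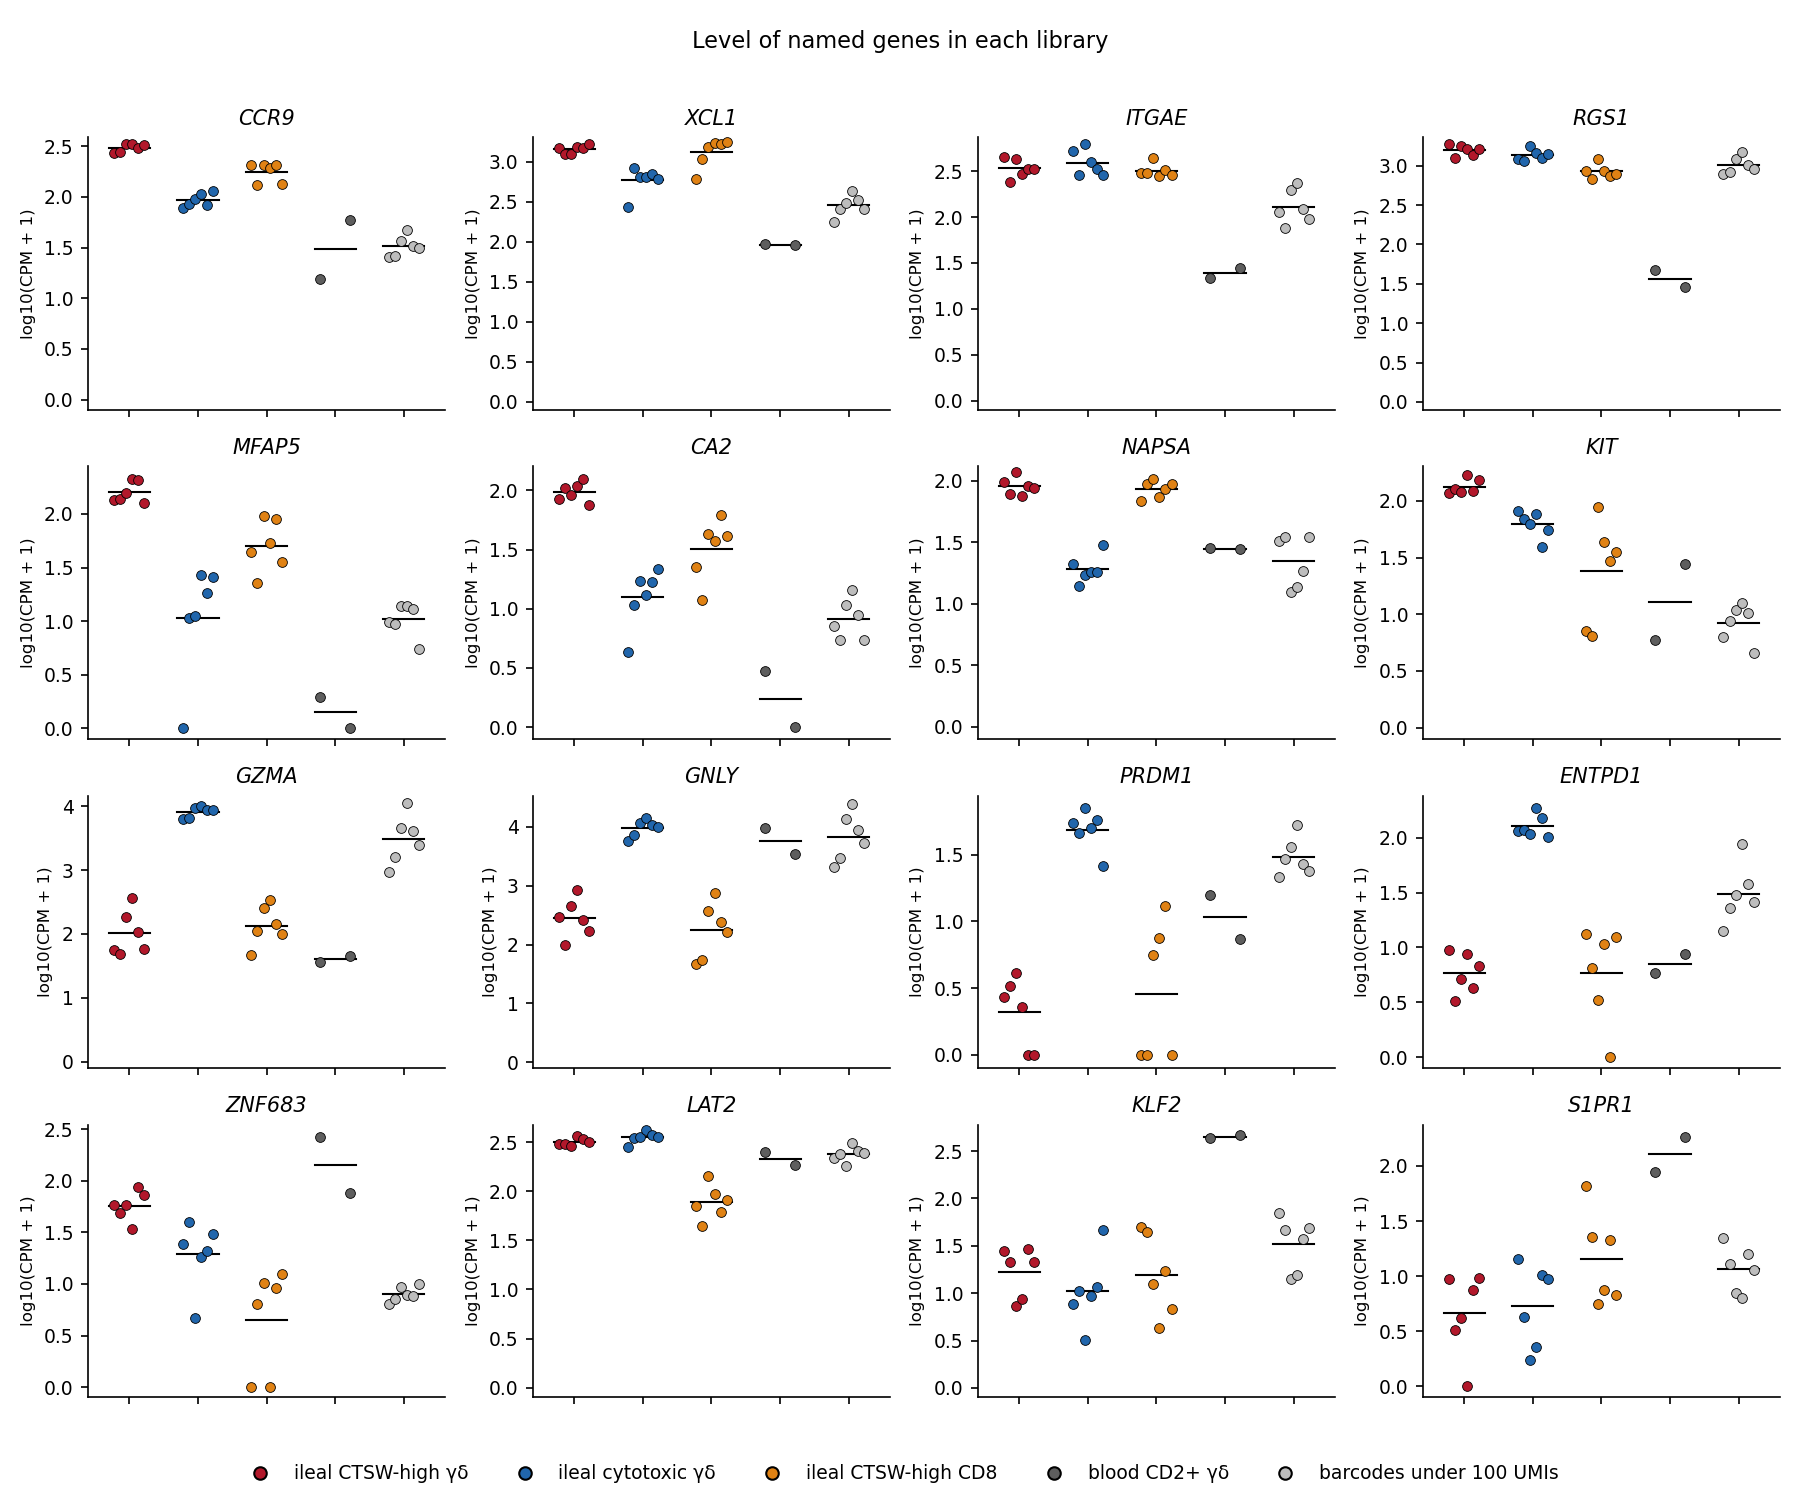
Each point is the level of a gene in 1 library (log10 of CPM + 1), for CTSW-high γδ T cells, cytotoxic γδ T cells, CTSW-high CD8 T cells, CD2-positive γδ T cells of blood and barcodes under 100 UMIs, with a line at the mean. CCR9 of CTSW-high γδ T cells lies at 270 to 334 CPM, above cytotoxic γδ T cells at 76.9 to 113 CPM.

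Among the genes lower in CTSW-high cells, those of the cytotoxic granule follow GZMB, which the choice used. Of 12 tested genes of the granule list 4 were lower and none higher (median log2 difference -0.43): GZMA, GNLY, GZMK and FASLG. GZMA, a tryptase of the granule, was 54.2, 47.6, 186, 371, 107 and 57.6 CPM in CTSW-high cells and 6350 to 10140 CPM in cytotoxic γδ T cells (log2 difference -5.67, SE 0.30, adjusted p = 7.96e-08). The matrices hold a second, near-identical GZMA entry, which differed by -5.65, and reads could be split between the entries. GNLY, a pore-forming peptide of the granule, was 288, 95.2, 454, 851, 259 and 167 CPM and differed by -4.70 (SE 0.66, adjusted p = 0.00252, 0.0707 with ambient counts subtracted). PRF1 and the other 7 tested granule genes did not pass without the block. With the pig as a block 4 granule genes were lower and 1, GZMM, was higher. GZMK (-2.41, adjusted p = 0.0177) and FASLG (-1.84, adjusted p = 0.0468) no longer passed without the library labelled whole ileum pig 1 (-2.23 and -1.98, adjusted p = 0.183 for both) or with ambient counts subtracted (-2.90 and -1.87, adjusted p = 0.09 and 0.0515).

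GZMA and GNLY were detected in CTSW-high cells about as often as in B cells, which should lack them and of which non-PP held only 19 and 49 barcodes. GZMA was detected in 10.1%, 12.9%, 36.2%, 74.1%, 26.9% and 16.0% of CTSW-high cells and in 10.6%, 14.5%, 31.6%, 75.5%, 33.0% and 17.2% of B cells of the same libraries. GNLY was detected in 16.3%, 19.4%, 69.3%, 94.0%, 54.4% and 37.8% of CTSW-high cells and in 19.3%, 25.2%, 73.7%, 98.0%, 57.1% and 33.6% of B cells. With ambient counts subtracted the differences from cytotoxic γδ T cells were -9.69 (SE 1.23) for GZMA and -8.33 (SE 1.94) for GNLY. CCR9, XCL1, MFAP5 and CA2 stood well above B cells in every library, whereas NAPSA was also at 24.7 to 76.0 CPM in B cells.

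**Figure D3:**
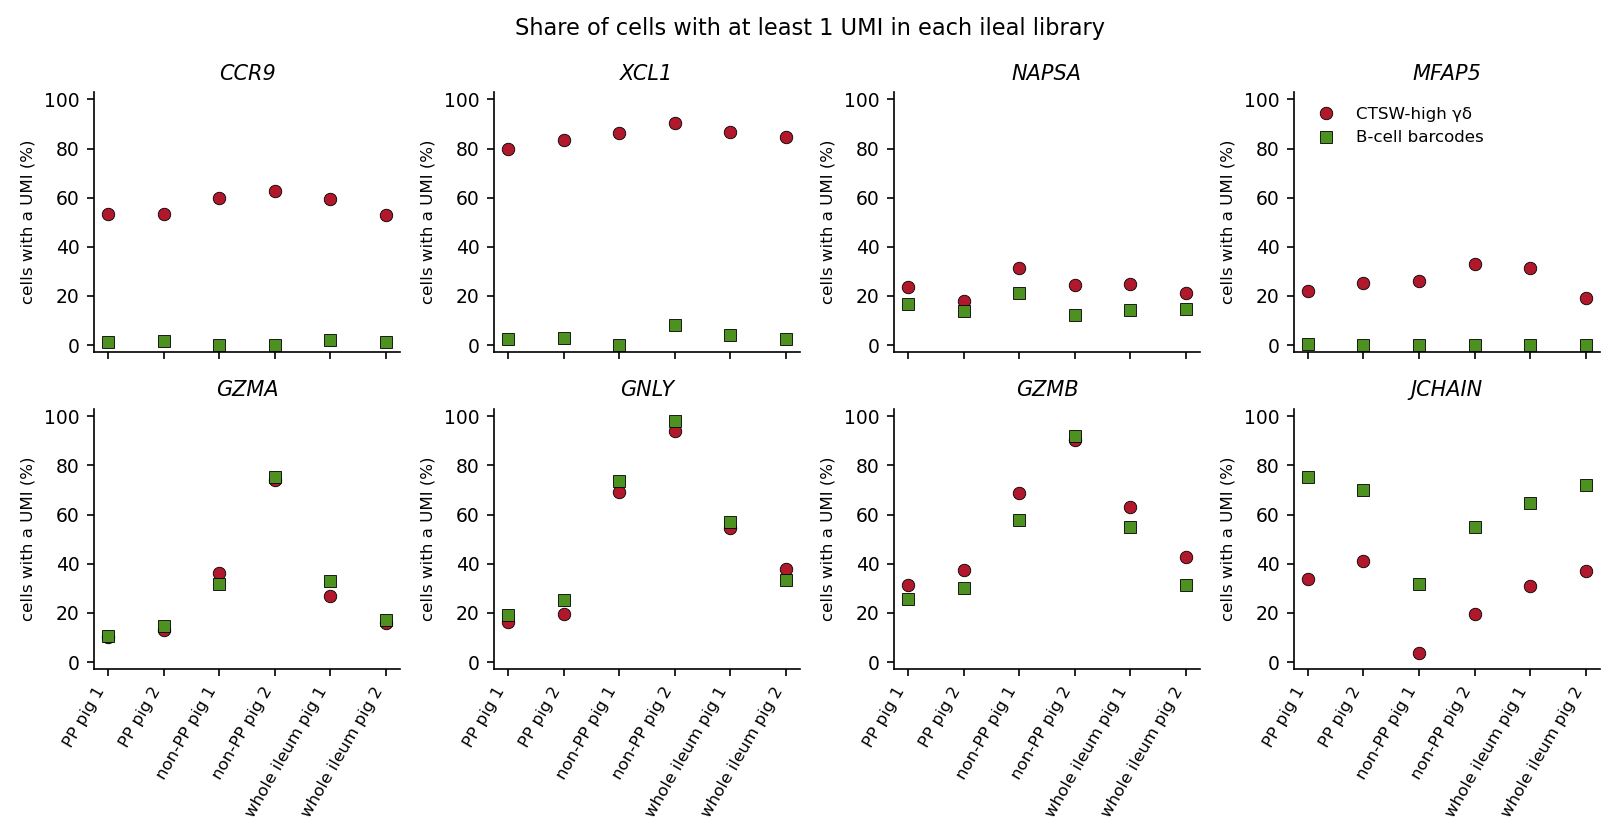
The vertical axis is the percent of cells with at least 1 UMI of a gene and the horizontal axis names the 6 ileal libraries, with circles for CTSW-high γδ T cells and squares for B cell barcodes. GZMA and GNLY reach like shares in both kinds of cell, 74.1% against 75.5% for GZMA in non-PP pig 2. CCR9 is at 52.9% or more in CTSW-high cells and at most 1.9% in B cells. GZMB is shown as a description only, since the choice limited it in CTSW-high cells.

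IFNG, PRDM1, ENTPD1, RUNX1 and LTC4S were lower in CTSW-high cells too. IFNG, the main type 1 cytokine, was 23.7, 27.2, 10.4, 8.94, 9.85 and 20.2 CPM against 54.3 to 119 CPM in cytotoxic γδ T cells (log2 difference -2.44, SE 0.32, adjusted p = 0.00136). PRDM1 encodes Blimp-1, a transcriptional repressor that drives terminal effector and plasma cell differentiation. It was 1.70, 2.27, 3.13, 1.28, 0 and 0 CPM against 25.1 to 69.9 CPM (-4.94, SE 0.51, adjusted p = 0.000104). ENTPD1, the ectonucleotidase CD39, was 8.47, 2.27, 4.18, 7.67, 3.28 and 5.76 CPM against 100 to 186 CPM (-4.63, SE 0.33, adjusted p = 2.5e-06). Each of the 3 genes was lower in every CTSW-high sum than in every cytotoxic one. RUNX1 was the second transcription factor among 23 tested to be lower (-1.84, adjusted p = 0.0224, 0.183 without the library labelled whole ileum pig 1), and LTC4S, leukotriene C4 synthase, was at 2.15 against 26.3 CPM (-3.47, adjusted p = 0.00322).

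Other groups of genes held few or no calls between the 2 γδ classes. Of 10 gut homing and retention genes CCR9 alone was called, of 17 chemokines and cytokines XCL1 and IFNG, and of 12 checkpoint and costimulation genes ENTPD1. No gene passed in either direction among 21 of the T cell receptor complex and its signalling, 15 NK receptors and adaptors, 17 immediate early genes, 14 interferon-stimulated genes, 10 heat shock genes, 16 cytokine receptors, 10 egress genes and 10 cathepsins and cystatins, by the same edgeR test. Of these 113 genes 20 (17.7%) had an unadjusted p under 0.05, beside 10.2% of all genes tested, and DESeq2 called 3 (TCF7, KIT and IL18R1), or 2.65% beside 0.54%. With the pig as a block a few did pass. TCF7, DUSP2, IL2RA and KIT were higher in CTSW-high cells, whereas IL18R1, KLRG1 and SYK were lower (-1.625, -1.404 and -2.262). DUSP2, IL2RA and KLRG1 no longer passed with the block once the library labelled whole ileum pig 1 was left out (adjusted p = 0.117, 0.119 and 0.107). TCF7, a transcription factor of naive and self-renewing T cells, was 336, 274, 265, 253, 299 and 271 CPM in CTSW-high cells and 76.4 to 161 CPM in cytotoxic ones (1.37, SE 0.35, adjusted p = 0.0882, 0.0113 with the block and 0.0135 with the block but without the library labelled whole ileum pig 1). KLRK1, which encodes the activating receptor NKG2D, was 1073 to 1560 CPM in CTSW-high cells and 994 to 1427 CPM in cytotoxic ones, and the groups overlapped.

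**Figure D4:**
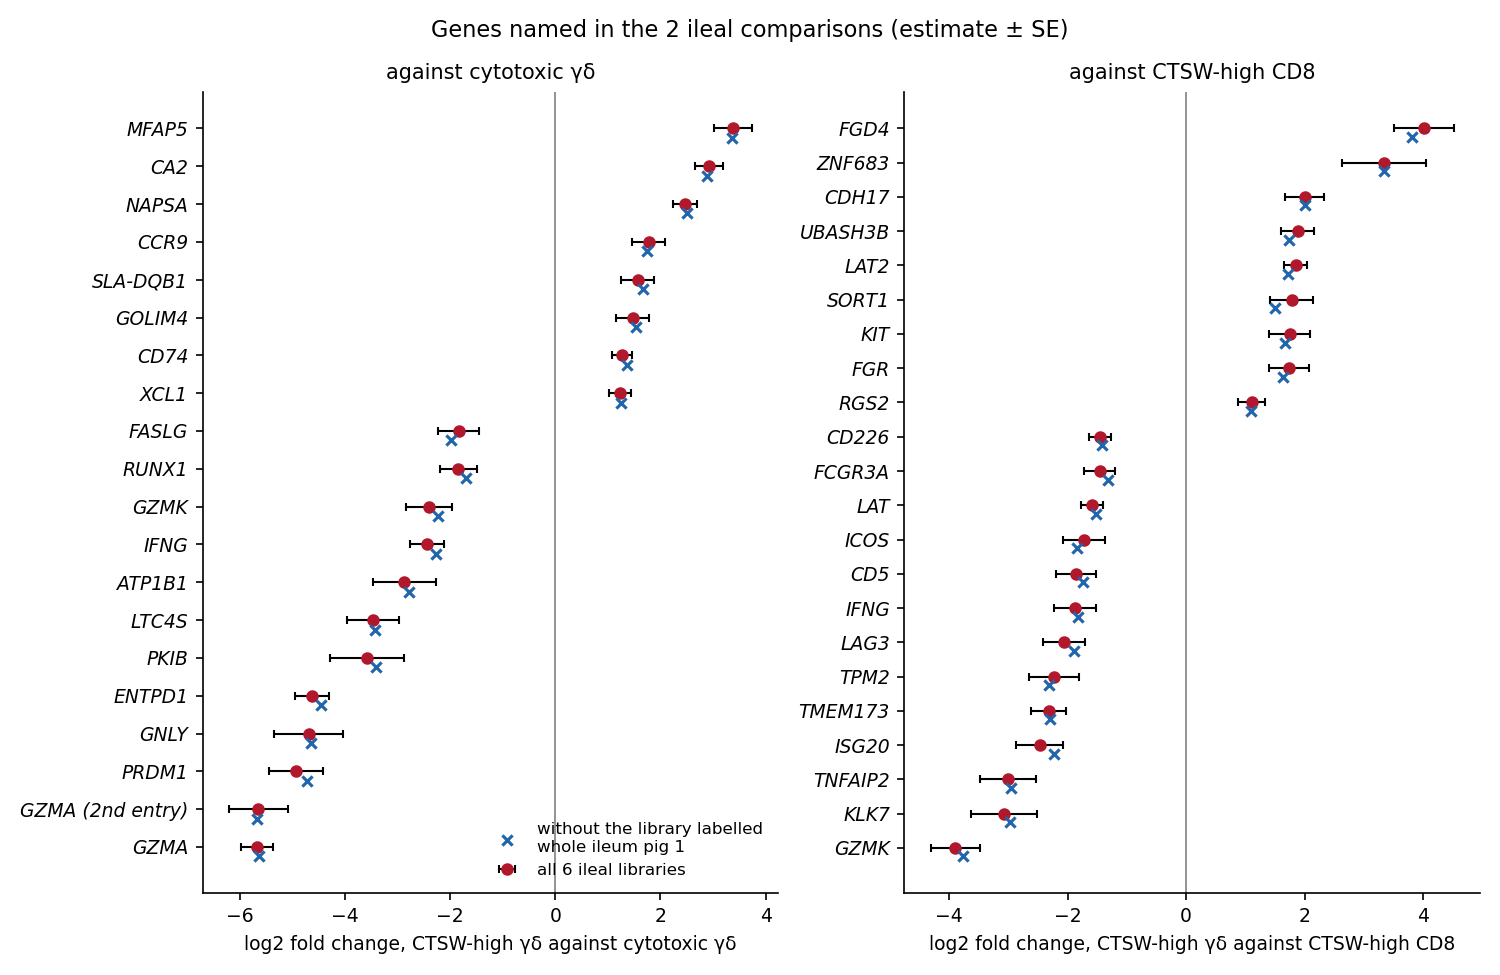
Log2 difference ± SE between CTSW-high γδ T cells and cytotoxic γδ T cells (left) or CTSW-high CD8 T cells (right) for named genes, from sums over the cells of each of 2 pigs; crosses give the value without the library labelled whole ileum pig 1. MFAP5 is at 3.38 and GZMA at -5.67 on the left, and FGD4 is at 4.01 and GZMK at -3.89 on the right.

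The next comparison kept the CTSW threshold and changed the T cell lineage. CTSW-high CD8 T cells were 452 barcodes with CD8B, no TRDC and the same rule for CTSW and GZMB. Of 7410 genes 25 were higher (0.337% of all tested) and 21 lower (0.283%) in the γδ cells, together 0.621%. With the pig as a block 63 were higher (0.85%) and 44 lower (0.594%), together 1.44%. CCR9, XCL1 and the MHC class II genes were not called between the lineages. CCR9 was at a log2 difference of 0.73 (adjusted p = 0.486), although its 6 values lay above the 131 to 206 CPM of the CD8 cells. XCL1 was at 0.01, SLA-DRA at 0.19, SLA-DQB1 at 0.12 and ITGAE at 0.06. GZMA, GNLY and CCL5 were at -0.14, 0.39 and -0.06 and were not called either. γδ cells held more LAT2, KIT, ZNF683, CDH17, UBASH3B and FGR, and less LAT, CD5, GZMK, LAG3, ICOS, IFNG, FCGR3A and CD226.

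Signalling molecules differed in both directions. LAT2 (NTAL), an adaptor known from B cells, NK cells and mast cells, was 305, 302, 285, 364, 342 and 320 CPM in CTSW-high γδ T cells against 43.5 to 141 CPM in CTSW-high CD8 T cells (log2 difference 1.85, SE 0.19, adjusted p = 0.00031). LAT, the adaptor that links the T cell receptor to its downstream enzymes, was 115 to 195 CPM against 273 to 528 CPM (-1.59, SE 0.19, adjusted p = 0.000746). CD5, an inhibitory co-receptor of the T cell receptor, was 76.7 to 137 CPM against 213 to 459 CPM (-1.86, SE 0.33, adjusted p = 0.0198). The 6 values of the γδ cells did not overlap those of the CD8 cells for any of these 3 genes. Without the library labelled whole ileum pig 1 LAT2 kept its call (adjusted p = 0.0125) and CD5 did not (-1.75, adjusted p = 0.177). LAT2 was at 2.15 without pig 1 and 1.61 without pig 2, and LAT was at -1.95 and -1.24. RHEX, listed with the signalling genes, had no UMI in the CD8 cells and was at 3.83 to 26.1 CPM in γδ cells, at least 8.65-fold higher if the CD8 cells are set to 3 counts in all. Its adjusted p was 0.0301, 0.15 without that library and 0.0731 without scored doublets. RHEX was detected in only 0.549% to 2.52% of CTSW-high γδ T cells, so that a few cells carry its value. Cytotoxic γδ T cells held 5.27 to 87.0 CPM of RHEX and CD2-negative γδ T cells 391 to 792 CPM.

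KIT, the receptor for stem cell factor, was 115, 127, 119, 167, 120 and 153 CPM in CTSW-high γδ T cells, detected in 26.9% to 41.3% of cells, and 5.44 to 87.9 CPM in CTSW-high CD8 T cells (log2 difference 1.74, SE 0.35, adjusted p = 0.0308). It is also a mast cell gene, and the CD3E-negative CTSW-high cells of these libraries held 189 to 611 CPM, so that KIT was not particular to γδ cells. B cells held KIT in at most 0.424% of barcodes. ZNF683 encodes Hobit, a transcription factor of tissue-resident lymphocytes. It was 57.6, 47.6, 57.4, 33.2, 85.4 and 72.0 CPM against 0 to 11.6 CPM (3.34, SE 0.71, adjusted p = 0.0485), and 1 of 23 tested transcription factors passed without the block. CDH17, a cadherin of intestinal epithelium, was 42.4 to 74.1 CPM against 0 to 27.8 CPM (2.00, SE 0.33, adjusted p = 0.0161). UBASH3B, a phosphatase that dampens receptor signalling, and FGR, a Src-family kinase, were higher by 1.89 and 1.73 (adjusted p = 0.00537 and 0.0265), and FGD4, an exchange factor for CDC42, by 4.01 (adjusted p = 0.00125). Without the library labelled whole ileum pig 1 the adjusted p was 0.223 for KIT, 0.211 for ZNF683, 0.383 for CDH17, 0.15 for UBASH3B and 0.28 for FGR, at log2 differences of 1.66, 3.35, 2.00, 1.74 and 1.64. FGR also missed the threshold with ambient counts subtracted (1.82, adjusted p = 0.0566) or without scored doublets (1.72, 0.0593), as did ZNF683 without scored doublets (3.33, 0.0645), at differences near those of all cells.

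Some effector and checkpoint genes were lower in the γδ cells. GZMK was 0 to 8.35 CPM against 41.7 to 114 CPM in CTSW-high CD8 T cells (log2 difference -3.89, SE 0.42, adjusted p = 0.00031). IFNG differed by -1.88 (adjusted p = 0.0235). LAG3, an inhibitory receptor that binds MHC class II, was 5.76 to 28.8 CPM against 46.2 to 87.1 CPM (-2.07, SE 0.36, adjusted p = 0.0173), and the costimulator ICOS differed by -1.72 (adjusted p = 0.0377). They were the 2 called of 12 tested checkpoint and costimulation genes, whose median was -0.64 beside 0.00 over all genes. Among 15 NK receptors FCGR3A (CD16) was lower, at 525 to 1010 CPM against 1827 to 2215 CPM (-1.46, SE 0.26, adjusted p = 0.0198), as was CD226 (-1.46, adjusted p = 0.00149). FCGR3A is also a macrophage gene, and of 7 tested genes of the macrophage and dendritic cell list none was called, 4 had an unadjusted p under 0.05 and DESeq2 called C1QC, with a median of -1.71. C1QB and C1QC, of complement C1q, were lower with the block, at 0 to 6.78 and 0 to 5.76 CPM in γδ cells against 0 to 55.5 and 0 to 52.0 CPM. In whole ileum pig 1 both were at 0 in the CD8 cells, which held FCGR3A at 2215 CPM. The source of the FCGR3A difference was not tested. Without the block edgeR called none of 10 gut homing, 10 egress, 10 cathepsin and cystatin, 10 heat shock and 5 MHC class II genes. Of these 45 genes 7 (15.6%) had an unadjusted p under 0.05, beside 9.03% of all genes tested. DESeq2 called 1 (GPR183), or 2.22% beside 0.715%, and edgeR called GPR183 lower with the pig as a block. KLRK1 was higher in every γδ library (147 to 641 CPM in CD8 cells) and passed with the pig as a block but not without it (2.03, SE 0.56, adjusted p = 0.154, 0.021 with the block and 0.101 with the block but without the library labelled whole ileum pig 1). Without the library labelled whole ileum pig 1 the adjusted p was 0.185 for IFNG, 0.177 for LAG3, 0.205 for ICOS and 0.205 for FCGR3A, at log2 differences of -1.83, -1.90, -1.85 and -1.32.

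Blood CD2-positive γδ T cells (395 barcodes of PBMC of the same pigs) were compared to describe what accompanies the ileal site. Tissue, enzymatic and mechanical dissociation and library cannot be told apart in this contrast. Of 7410 genes 381 were higher (5.14% of all tested) and 432 lower (5.83%) in the ileal CTSW-high cells, together 11.0%, with a median log2 difference of -0.003 over all genes. With the pig as a block 469 were higher (6.33%) and 500 lower (6.75%), together 13.1%. The blood cells were not divided by CTSW and GZMB, whereas the ileal cells were. With blood cells held to the same CTSW threshold, an alternative chosen after seeing the data, 274 were higher and 310 lower. Of the named genes, 17 lost their call in that setting and 60 kept the same result. Below, such a loss is given for TYROBP, CTSS and CTSZ only. Genes higher in ileal cells included 12 of 17 immediate early genes, 4 of 5 of MHC class II and 4 of 10 of gut homing and retention, and those lower included 7 of 10 genes of egress into lymph and blood.

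Of 10 tested genes of gut homing and retention 4 were higher and 1 was lower (median log2 difference 1.32). RGS1, which dampens chemokine receptor signalling, was 1886, 1258, 1772, 1658, 1354 and 1642 CPM in the 6 ileal libraries and 45.9 and 28.1 CPM in blood (log2 difference 5.49, SE 0.23, adjusted p = 1.6e-09). ITGAE was 451, 240, 427, 296, 333 and 334 CPM against 23.2 CPM in the pooled blood cells (3.97, SE 0.37, edgeR, adjusted p = 5.78e-06). CCR9 was higher by 3.22 (edgeR, adjusted p = 3.97e-05). ITGA4, a subunit of the integrins that bind gut and inflamed endothelium, was lower by 1.13 on the log2 scale (adjusted p = 0.00486). ITGA4 was at -0.72 without pig 1 (adjusted p = 0.12). CCR9 was at 2.50 without pig 1 and 4.49 without pig 2. When blood cells were held to the same CTSW threshold, CCR9 was 14.2 and 44.0 CPM in blood and the difference was 3.62 (adjusted p = 5.35e-06).

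Of 10 egress and lymph node homing genes 7 were lower and CXCR4 was higher (median -3.11). KLF2, the transcription factor that switches on S1PR1, was 27.1, 20.4, 6.26, 7.67, 27.9 and 20.2 CPM in the ileum and 429 and 465 CPM in blood (log2 difference -4.70, SE 0.32, adjusted p = 2.39e-07). S1PR1, the receptor by which lymphocytes leave tissue, was 0 to 8.64 CPM against 87.9 and 181 CPM (-4.85, SE 0.56, adjusted p = 4.02e-05). S1PR5 had no UMI in ileal CTSW-high cells and was at least 73.5-fold lower, with the ileal cells set to 3 counts in all. CX3CR1, a receptor of blood effector cells and of monocytes, had no UMI in them either and was at least 148-fold lower. Blood of pig 1 and pig 2 held CX3CR1 at 186 and 30.6 CPM and S1PR5 at 87.9 and 21.7 CPM. Pig 1 thus carried most of both bounds. CXCR4, the receptor for CXCL12, was 405, 340, 214, 253, 256 and 438 CPM against 12.7 and 57.4 CPM (3.22, SE 0.40, adjusted p = 7.98e-05). The ileal and blood values did not overlap for any of these genes.

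Among 17 immediate early and activation genes 12 were higher and none lower (median 3.12, or 2.91 with genes absent from blood at their bound). RGS2 was higher by 4.72, TNFAIP3 by 4.52 and CREM by 3.12 (adjusted p = 1.53e-07, 2.68e-06 and 2.31e-06). JUN was 239, 261, 176, 281, 268 and 274 CPM against 92.7 and 66.3 CPM in blood (1.69, SE 0.20, adjusted p = 4.69e-05), and NR4A3 was at least 13.4-fold higher. CD69, an early activation marker that also retains cells in tissue, was 143 to 253 CPM against 11.7 and 43.4 CPM. Heat shock genes DNAJB1 and HSPA5 were 2 of 10 that were higher (2.61 and 1.83, adjusted p = 0.0125 and 1.62e-05), and DNAJB1 missed the threshold without the library labelled whole ileum pig 1 (adjusted p = 0.13), pig 1 (0.0693) or pig 2 (0.112). Genes of both lists can respond to dissociation, whose part in these values cannot be told apart from that of the tissue.

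Ligands and receptors of the cells differed from blood as follows. XCL1 was 1243 to 1682 CPM in the ileum and 92.7 and 89.3 CPM in blood (4.04, SE 0.24, adjusted p = 7.11e-08). CCL4 was higher by 2.20 (adjusted p = 0.0193), and LTB, which encodes lymphotoxin β, was lower by 1.61 on the log2 scale (adjusted p = 0.00662, 0.081 without the library labelled whole ileum pig 1). Over 17 chemokines and cytokines 5 were higher and 1 lower, with a median of 1.99 that fell to 0.07 with genes absent from blood at their bound. Among NK receptors CRTAM, CD96 and CD244 were higher (3.47, 2.83 and 2.15, adjusted p = 9.74e-07, 0.000201 and 0.000145), and TYROBP, an adaptor of activating receptors, was lower by 2.33 on the log2 scale (adjusted p = 0.00749). TYROBP was 24.9 to 115 CPM in the ileum and 114 and 353 CPM in blood, so that the groups overlapped, and against blood cells of the same CTSW threshold it was at -1.25 (adjusted p = 0.147). Without pig 2 the adjusted p was 0.0938 for TYROBP, 0.254 for LTB (-0.78) and 0.121 for CCL4, which had 0.0678 without pig 1. KIT was higher by 3.26 (adjusted p = 8.26e-05). Without pig 1 and without pig 2 KIT was at 2.59 and 4.68, CD244 at 3.21 and 1.56, and CD96 at 4.14 and 2.29. Of 21 genes of the T cell receptor complex and its signalling 6 were higher and 3 lower. CD3D was 438 to 539 CPM against 130 and 213 CPM (1.60, SE 0.22, adjusted p = 0.000163), and CD247, the ζ chain, was 1634 to 2860 CPM against 504 and 845 CPM (1.88, SE 0.26, adjusted p = 0.000209).

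MHC class II genes were higher in the ileum for 4 of 5 tested and none was lower (median 1.55). CD74 was higher by 1.96, SLA-DRA by 1.90 and SLA-DQB1 by 1.55 (adjusted p = 1.14e-05, 0.00141 and 0.00367). SLA-DQB1 had an adjusted p of 0.0749 without the library labelled whole ileum pig 1. Among 12 checkpoint and costimulation genes HAVCR2 and TNFRSF9 were higher (2.03 and 2.17, adjusted p = 0.01 and 0.00253), and of 10 cathepsins and cystatins CST7 was higher (1.35, adjusted p = 0.00244) and CTSS and CTSZ lower (-1.20 and -1.85, adjusted p = 0.0134 and 0.0105). Against blood cells of the same CTSW threshold CTSS and CTSZ were at -0.72 and -0.92 and did not pass (adjusted p = 0.181 and 0.16). CTSZ overlapped between the groups and had an adjusted p of 0.052 without the library labelled whole ileum pig 1. Of 12 cytotoxic granule genes 3 were higher as counted (GZMA, PRF1 and CST7) and 2 lower. Perforin (PRF1) was 149 to 222 CPM against 117 and 56.1 CPM (1.16, SE 0.28, adjusted p = 0.011, 0.0526 without that library), and GNLY was lower by 3.89 on the log2 scale (adjusted p = 0.000716). GZMA was higher by 2.15 as counted and at -1.72 (adjusted p = 0.358) once ambient counts were subtracted, so no direction is given for it. Without pig 2 the adjusted p was 0.0818 for SLA-DQB1, 0.0541 for TNFRSF9, 0.215 for PRF1 (0.62), 0.268 for CTSS (-0.71) and 0.171 for CTSZ (-0.79), and without pig 1 it was 0.225 for HAVCR2.

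Of 23 transcription factors 3 were higher and 7 lower than in blood. TBX21, which encodes T-bet, was 6.80 to 28.8 CPM against 149 and 35.7 CPM (-2.22, SE 0.48, adjusted p = 0.00535). ID3 was lower by 2.20 and ZNF683 by 1.55 on the log2 scale (adjusted p = 0.00193 and 0.0161). ZNF683 was 33.2 to 85.4 CPM in the ileum and 263 and 75.2 CPM in blood, so that the groups overlapped, and without pig 1 the difference was -0.64 (adjusted p = 0.376). Interferon-stimulated genes were lower for 4 of 14 and higher for none (median -0.73). Without the library labelled whole ileum pig 1 IFITM3 (-2.03) and OAS2 (-1.93) no longer passed (adjusted p = 0.0984 and 0.18). IFITM3 was at -0.95 without pig 2. IRF7, a master regulator of the interferon response, was 2.09 to 16.4 CPM against 35.1 and 190 CPM in pig 1 and pig 2 (-3.93, SE 0.74, adjusted p = 0.00209). The blood pigs differed widely for IRF7 and TBX21, in opposite order, and in both genes each blood value exceeded all ileal ones. With 1 pig left out, TBX21 was at -1.03 without pig 1 (adjusted p = 0.299), IRF7 at -2.13 (0.125) and ID3 at -1.06 (0.0264) without pig 2.

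Other cells' genes moved with this contrast. In blood CD2-positive γδ T cells HBB, a red cell gene, was at 4940 CPM against 10.7 CPM, and FCN1, S100A12 and S100A8 of monocytes and PPBP and F13A1 of platelets had no UMI in the ileal cells. HBB was at 8490 CPM in blood of pig 1 and 302 CPM in blood of pig 2. Its log2 difference was -8.62, and -4.99 without pig 1. On the ileal side the epithelial gene FABP6 was at 604 against 0.553 CPM, with an adjusted p of 0.634 after ambient counts were subtracted. In the 6 ileal libraries the epithelial markers summed to 424, 154, 2077, 316, 163 and 254 CPM, and FABP6 made up 1822 CPM of the highest value. The upper limit of free RNA, if all JCHAIN and epithelial marker UMIs came from it, was 3.26% to 5.07% of UMIs in the CTSW-high cells and 2.08% and 2.77% in the blood cells. It was 3.91% to 5.06% in cytotoxic γδ T cells except in non-PP pig 2 (25.9%), and 2.79% to 5.88% in CTSW-high CD8 T cells except in PP pig 2 (19.7%). With ambient counts subtracted 347 genes were higher and 410 lower than in blood, and without scored doublets 372 and 400.

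**Figure D5:**
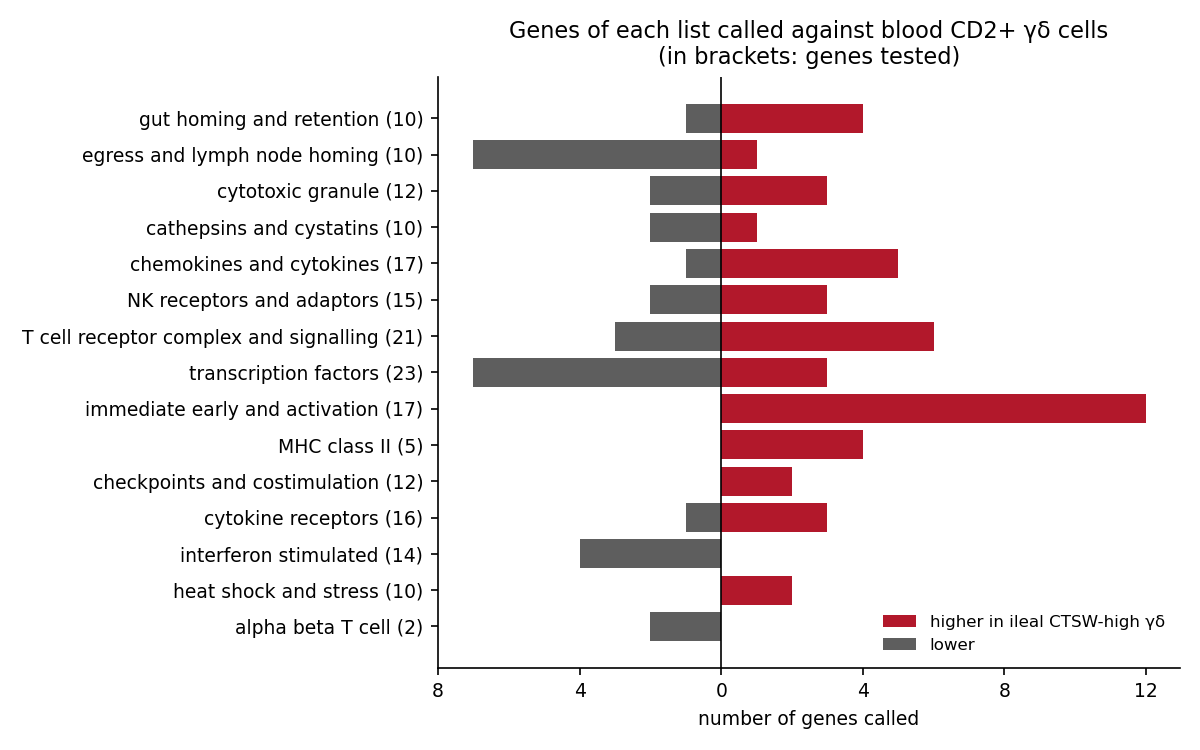
Number of genes of each list called higher (right) or lower (left) in ileal CTSW-high γδ T cells than in blood CD2-positive γδ T cells, by edgeR. Immediate early genes are 12 higher and none lower of 17, and egress genes 1 higher and 7 lower of 10. The granule list counts GZMA as higher, as counted.

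Expression of the CTSW-high cells was last compared between tissue with and without Peyer's patches. Of 5139 genes tested over the 6 libraries, none was higher and 1 was lower in non-PP than in PP (0.0195% of all tested), and 173 genes had an unadjusted p under 0.05 by edgeR. DESeq2 called 1 gene higher and 4 lower. With the pig as a block 1 was higher and 9 lower (0.175%), together 0.195%. The called gene carries no symbol (ENSSSCG00000038719). It was at 21.8 CPM in non-PP and 142 in PP (log2 difference -2.67, SE 0.27, adjusted p = 0.00412), and it was at -2.38 with an adjusted p of 0.598 after ambient counts were subtracted. CCR9, XCL1, SLA-DRA, ITGAE and CCL5 differed by 0.30, 0.01, -0.02, 0.07 and 0.24 between dissections, none of which passed. MFAP5 differed by 0.44 (SE 0.25) and did not pass.

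The named genes that passed with the block were GZMA, LTB, JCHAIN and ZNF70. LTB was 164 and 150 CPM in PP, 65.8 and 58.8 in non-PP and 108 and 121 in whole ileum (log2 difference -1.33, adjusted p = 0.0615, 0.012 with the pig as a block). Barcodes under 100 UMIs held LTB at 459, 645, 37.1, 47.2, 458 and 494 CPM in PP, non-PP and whole ileum of pig 1 and pig 2, so that the free RNA differed the same way. JCHAIN, the joining chain of secreted IgA and IgM, was 132, 200, 11.5, 51.1, 100 and 153 CPM (-2.45, adjusted p = 0.168, 0.00125 with the block). GZMA was at 2.43 (adjusted p = 0.0615, 0.0061 with the block), with the shares of B cells given above that varied alike. ZNF70, a zinc finger gene, was at 1.15 against 39.8 CPM (-4.89, adjusted p = 0.102, 0.0104 with the block). Few genes were thus called between CTSW-high γδ T cells of PP and non-PP at this depth of 347168 to 957891 summed UMIs per library. Without the block edgeR called none of 147 tested genes in 14 lists. Of these genes 19 (12.9%) had an unadjusted p under 0.05 by edgeR, beside 3.37% of all genes tested. DESeq2 called 1 of them (GZMA), or 0.68% beside 0.0973%. With ambient counts subtracted LTB was at -1.13 (SE 0.21, adjusted p = 0.598), whereas JCHAIN, GZMA and ZNF70 were not among the genes tested in that fit.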

How the data were processed

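The authors deposited raw UMI counts per gene and barcode, made with CellRanger (Cell Ranger 4.0.6 in the submitters' processing notes) from 10x 3' libraries aligned to Sscrofa11.1 with a modified annotation. The counts cover all barcodes of 8 libraries and 25880 genes, from before the authors' steps against free RNA, low-quality barcodes and doublets. The authors' cell annotations were not used, so cells were chosen by their reads. Genes were named from the matrices (17733), the supplied name table (969) or the study's gene table (19); 7159 stayed unnamed. Coordinates are those of RefSeq for the same assembly.

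UMIs were summed per class and pig (2 pigs; 8 classes in 1 fit) or, for dissections, per library, and tested with edgeR 4.0.16 (quasi-likelihood, filterByExpr, TMM, Benjamini-Hochberg over all genes; called at adjusted p under 0.05 and fold over 2). The 9 genes of the gate and 13 mitochondrial genes were left out. The pig numbers are labelled as the same animal, which the Y-linked reads of the library labelled whole ileum pig 1 go against. A fit with the pig as a block was run with and, chosen after seeing the data, without that library; within a pig, deviations of PP and non-PP libraries correlated at 0.44, and those of whole ileum at -0.029 with PP and -0.032 with non-PP. DESeq2 1.42.0 was an alternative. The expected ambient counts came from barcodes under 100 UMIs. Doublets were scored by scrublet in scanpy 1.11.5 (expected rate 0.07, above 0.25) and left in: 16 CTSW-high cells were so scored. B cell barcodes had at least 2 UMIs of CD79B. Other tools were R 4.3.3, matplotlib 3.10.9, scipy 1.17.1 and Python 3.11.15. The scripts were tested on simulated data.

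Named genes were, per comparison, up to 8 called genes per direction (5 for dissections) with a symbol, at least 20 CPM and the same direction in both pigs, up to 4 called examples of each of 22 lists (287 genes, of which 266 were named), and the study's own genes for these cells; some genes that the rule names are not reported here. The cells and lists were chosen with earlier results of these data known. CD8A, KLRK1, TCF7, GPR183, IL18R1, RHEX and genes named for a block were chosen after their values were seen. GZMB here is an entry that the name table calls GZMH. Intervals are Clopper-Pearson at 95% and cover counting error only. Cells are not replicates; with 2 pigs, tests measure the spread between them.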

Additional observations from a re-analysis of the deposited data

Results flagged for a closer look

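Of 22 measures of the CTSW-high γδ T cells tested over the 6 ileal libraries, 4 had a sample whose gap to the nearest other was, relative to the whole range, above Dixon's critical value, which chance gives for about 1 in 20 groups. TRDC was 4594 CPM in whole ileum pig 2, a gap of 0.729 of the range, and SLA-DRA was 1403 CPM in the same library, a gap of 0.709. Summed epithelial markers were 2077 CPM in non-PP pig 1, a gap of 0.86, most of it FABP6 at 1822 CPM. Summed stromal markers were 387 CPM in non-PP pig 2, a gap of 0.995, of which COL3A1 made up 185 CPM, whereas they were 1.64 to 3.39 CPM in the other libraries.

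Y-linked genes, which no comparison used, summed to 195 CPM in the library labelled whole ileum pig 1, although pig 1 is labelled female and its other libraries held at most 0.176 CPM. Within the CTSW-high cells of that library they summed to 179 CPM.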

How the results depend on the processing

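Of the called values of named genes, GZMA against blood alone changed direction, at -1.724 with ambient counts subtracted. Relative to T cells, the non-PP minus PP difference in the share of CTSW-high γδ T cells was 0.016 percentage points with at least 3 UMIs of CTSW and 0.092 with cells thinned to 1250 UMIs, and it ranged from -0.999 to -0.049 with 1 pig left out. The log2 difference in number was 0.004 and 0.033 in the same settings, 1.517 relative to all quality barcodes, and -0.138 to -0.009 with 1 pig left out. None of these passed a test.

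Against cytotoxic γδ T cells 11 genes were higher and 31 lower; against CTSW-high CD8 T cells the counts were 25 and 21. Without a filter on low counts they were 65 and 102, and 118 and 95. With UMIs summed per library, which counts dissections of 1 pig as separate samples, they were 31 and 67, and 60 and 46. Without the library labelled whole ileum pig 1 they were 2 and 8, and 3 and 5. With 1 pig left out of the classes compared, so that the remaining sum is assumed to vary like the other classes, they were 3 and 5 to 7, and 0 to 1 and 1 to 5. Against blood, 572 were higher without a filter, and 236 to 335 higher and 262 to 297 lower with 1 pig left out. Without the library labelled whole ileum pig 1, 43 of the values of named genes that had been called no longer passed and none of them changed direction; that fit holds fewer cells of 1 pig, and the cause was not tested.

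With the replicate block for the pig, 36 genes were higher and 85 lower than in cytotoxic γδ T cells, and 63 and 44 than in CTSW-high CD8 T cells. With the block but without the library labelled whole ileum pig 1 they were 20 and 46, and 20 and 25, and between non-PP and PP 22 and 20, where 5 libraries leave 1 residual degree of freedom. The share difference within pigs was -0.524 percentage points and the difference in number -0.076, neither past its test.

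Between non-PP and PP, 1 gene was higher and 4 were lower by DESeq2, 23 and 21 without a filter, 1 and 9 with the block, 1 and 1 with at least 3 UMIs of CTSW, 0 and 2 with at least 1 UMI, 1 and 1 without scored doublets, 0 and 0 with ambient counts subtracted, and 5 to 16 and 6 to 13 with 1 pig left out, where the 2 whole ileum libraries alone gave the spread. With 2 pigs, and 347168 UMIs in the smallest sum, how small a difference in low genes could be detected was not tested.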

Other observations

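GATA3, a transcription factor of T cells, was at 40.9 to 49.2 CPM in the CTSW-high γδ T cells, and the cytokine gene IL22 was at 4.54 to 28.8 CPM. Of the macrophage and dendritic cell list the summed level was 119 to 288 CPM and CST3 was its most abundant gene, and the αβ T cell list (CD4 and FOXP3) summed to at most 5.11 CPM.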
